A study of Mus musculus with 75 samples.

Results

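Notch receptors, ligands and fringes were followed across adult mouse cochlear cells. These are the receptors Notch1, Notch2 and Notch3, the ligands Jag1, Jag2, Dll1 and Dll3, and the fringe enzymes Lfng, Mfng and Rfng. The 10 genes were chosen by name with earlier results of these data known. All were found among the 55291 genes of the count table. The table covers 75 cells, each sequenced singly by Smart-Seq, in 5 groups. The 17 WT_P30 OHCs, outer hair cells (OHCs), came from Slc26a5CreER/+; Ai9/+ mice given tamoxifen at P20 and P21 and were collected at P30. The 16 WT_P60 SCs, supporting cells (SCs), came from Fgfr3-iCreER+; Ai9/+ mice given tamoxifen at P30 and P31 and were collected at P60. The remaining 42, all Tdtomato+, were taken at P60 from Fgfr3-Atoh1-Ikzf2-DTR mice. Those mice combined Fgfr3-iCreER+ with the Cre-dependent transgenes CAG-LSL-Atoh1+ and, at the Rosa26 locus, CAG-LSL-Ikzf2/+, and with Slc26a5 DTR/+, and were given tamoxifen at P30 and P31. At P36 they received 20 ng/g of diphtheria toxin (DT), which kills cells that carry its receptor, DTR. The labels divide these 42 induced cells by the hair cell (HC) gene Myo7a and the OHC gene Slc26a5, which encodes Prestin, into 11 OHC-like cells labelled positive for both, 16 nascent HCs labelled positive for Myo7a alone and 15 SCs failing to become HCs, labelled negative for both. Fgfr3-iCreER acts in adult SCs, mainly pillar cells and Deiters' cells. The induced cells thus differ from both wild-type groups in 2 transgenes, the DTR allele and DT together, which cannot be told apart here, and WT_P30 OHCs differ from all other groups in age. All cells were picked by hand, the number of mice behind each group is not given in the sources used here, and cells are the units of every test, so p-values measure the spread between these cells.

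Notch receptors are membrane proteins that are cleaved when a ligand on a neighbouring cell binds them, and the freed part moves to the nucleus and turns on genes such as Hes1 and Hes5 together with Rbpj. In the embryonic organ of Corti, new HCs carry Dll1, Jag2 and Dll3, and signal through Notch1 in their neighbours, which keeps those neighbours from becoming HCs, while Jag1 marks the prosensory region and later the SCs. Fringes are glycosyltransferases that add sugar to the receptors' extracellular repeats and so change which ligands they answer. Dll3 differs from the other ligands in that it acts mainly inside the cell that makes it, and it is not known to activate receptors on neighbours.

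The total count on genes lay between 4264780 and 22934062 reads per cell, and between 3348 and 9654 genes reached 1 CPM, a read count scaled to library size, here called detected. WT_P30 OHCs had a median of 4777 detected genes and OHC-like cells 8488. Levels are given as CPM scaled by TMM, a method that corrects for a few genes taking up much of a library, and they count reads, not molecules, since the protocol has no molecular identifiers. All 5 OHC markers checked (Ocm, Slc26a5, Myo7a, Lmo7, Tmc1) were found in WT_P30 OHCs, and none reached 1 CPM in any WT_P60 SC. All 5 SC markers (Sox2, Sox10, Bace2, Ceacam16, Gjb2) were found in WT_P60 SCs. Of the 17 WT_P30 OHCs, 4 also had at least 1 of them, with a summed level of up to 483 CPM. Of the inner hair cell markers Slc17a8, Otof and Slc7a14, at least 1 reached 1 CPM in 15 of the 17 WT_P30 OHCs. Their summed level there had a median of 427 and a highest of 1376 CPM, and Slc7a14 had no read. The median of that sum was 0 in every other group. The labels name no batch, so cells were grouped here into runs by their library numbers. Each wild-type group was taken as a run of its own, so run and cell type cannot be told apart there. The induced cells were divided into 5 runs named A to E. The numbers continue without a break at the borders between A, B, C and D, so these borders are not given by numbers or labels. The gap in numbers between run E and the WT_P30 OHCs is no wider than gaps inside run A. That border thus rests on the cell labels, not on the numbers. Whether the cells of a run were prepared together is not known.

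The counts did not match these labels at every cell when 1 CPM was taken as the limit. Myo7a reached 1 CPM in 3 of the 15 SCs failing to become HCs (cells 2, 7 and 15), at up to 28.0 CPM, below the lowest nascent HC at 94.5. Slc26a5 reached 1 CPM in 3 of the 16 nascent HCs (cells 1, 2 and 6), at up to 14.7 CPM, just below the lowest OHC-like cell at 15.9. Of the other OHC markers, Lmo7 was found in 9 and Ocm in 1 of the SCs failing to become HCs. Without those 3 cells, means in SCs failing to become HCs went from 57.7 to 19.0 CPM for Notch1, from 78.7 to 23.6 for Jag2, from 133 to 106 for Mfng and from 27.3 to 24.6 for Dll3, and in 12 cells Notch1 was detected in 9, Mfng in 7, Jag2 in 3 and Dll3 in 1. Dll1 went from 4.10 to 2.71 CPM there. In nascent HCs without their 3 cells, Mfng, Dll3 and Jag2 were detected in all 13, with means of 659, 642 and 275 CPM, and Notch3 went from 5.86 to 3.91 CPM.

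Of these 10 genes, Notch1, Notch3, Dll1, Dll3 and Mfng were absent or nearly absent from the wild-type cells. Each of them was detected in some or all cells of every induced group. Notch1, Dll1 and Mfng had no read in any of the 33 wild-type cells. Notch3 and Dll3 had 1 and 2 reads there, each in a single WT_P60 SC. Jag1 was the ligand of wild-type SCs, Jag2 that of wild-type OHCs, Lfng was found in SCs and not in OHCs, and Rfng was found in both. A WT_P30 OHC had at least 1 CPM of 0 to 3 of the 10 genes (median 1) and a WT_P60 SC of 1 to 4 (median 3). OHC-like cells had 3 to 8 (median 6), nascent HCs 5 to 10 (median 7) and SCs failing to become HCs 1 to 9 (median 5).

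**Figure D1:**
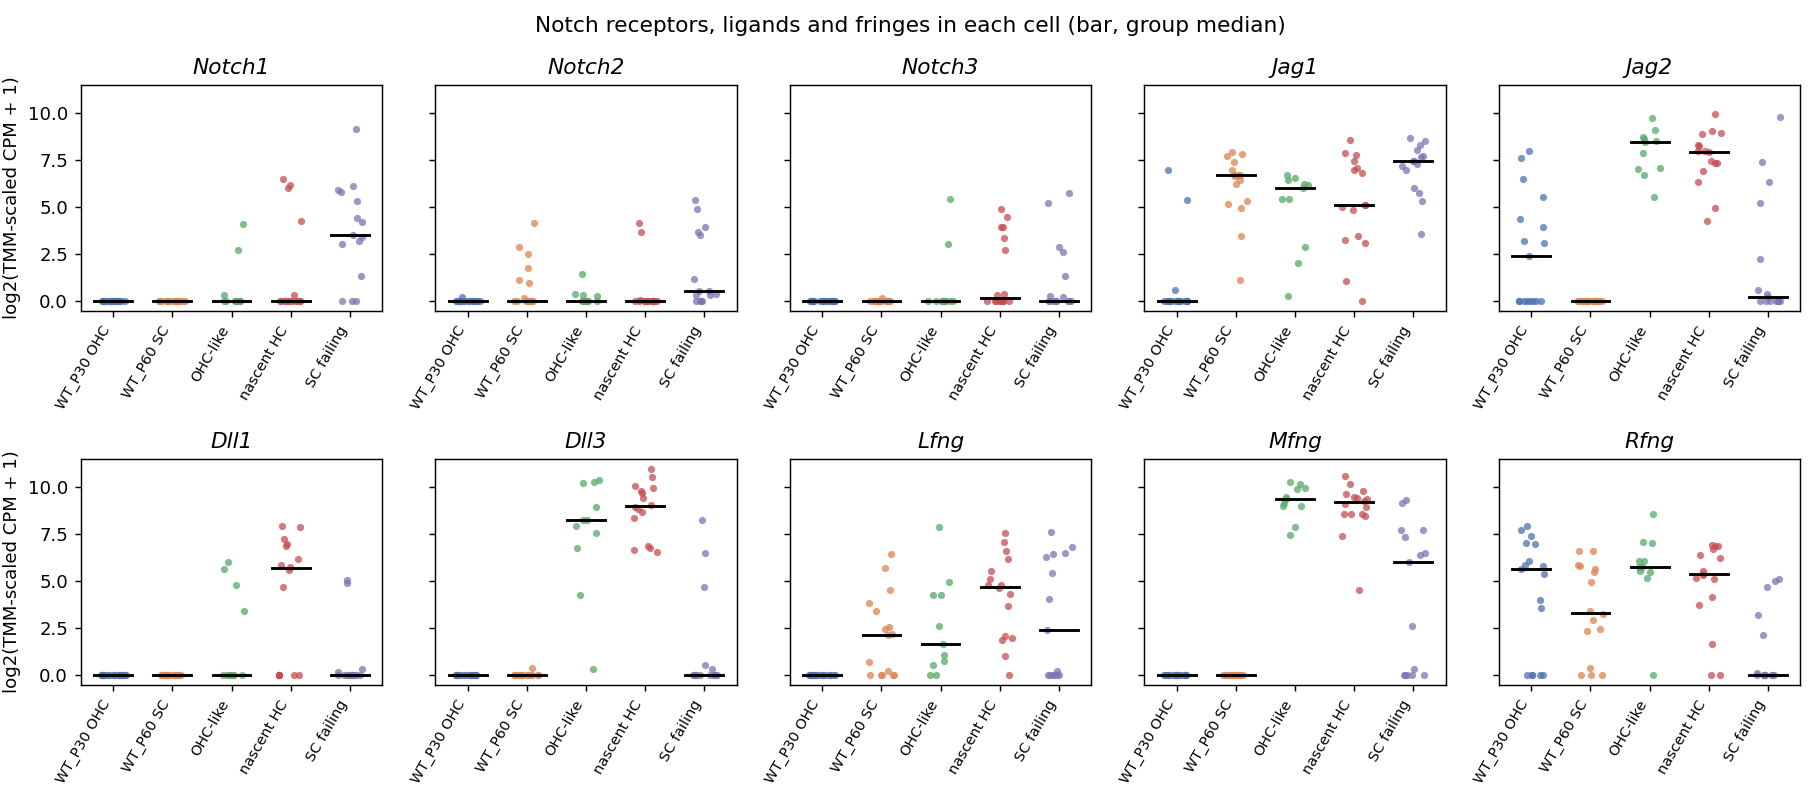
Level of each of the 10 genes in every cell, as log2 of TMM-scaled CPM plus 1, with 1 point per cell and a bar at the group median, for the 5 cell groups. Mfng and Dll3 lay at or near 0 in all 33 wild-type cells and high in OHC-like cells and nascent HCs, while the 15 SCs failing to become HCs were spread from 0 to the levels of those cells.

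The receptors were scarce or absent in the wild-type groups, and Notch1 was found in most SCs failing to become HCs. Notch1 is the receptor through which lateral inhibition acts in the developing organ of Corti. It had no read in the 17 WT_P30 OHCs or the 16 WT_P60 SCs, counts of 0 that allow shares of up to 17.6% and 18.8% of such cells. These limits cover counting error only. In SCs failing to become HCs it was detected in 12 of 15 cells, with a lowest value of 0, a median of 10.3 and a highest of 570 CPM. Of the nascent HCs 4 of 16 had it, with a median of 0 and a highest of 87.8 CPM. Only 2 of 11 OHC-like cells had it, at up to 16.4 CPM. The share of cells with the receptor was thus highest in SCs failing to become HCs, and every induced group also held cells without it.

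The mean of Notch1 in SCs failing to become HCs, 57.7 ± 144 CPM (SD, n = 15), was at least 137-fold higher than in WT_P60 SCs, taking 3 reads per cell as the floor for a group without reads. Cell 2 of that group held 65.9% of the summed level, and without it the mean was 21.1 CPM and the bound 50.3-fold. The edgeR quasi-likelihood test called the gene higher in that group than in WT_P60 SCs (adjusted p = 0.000152) and WT_P30 OHCs (adjusted p = 3.15e-05). Nascent HCs, with a mean of 14.9 ± 29.7 CPM (SD, n = 16), were called higher than WT_P60 SCs (adjusted p = 0.00027) and WT_P30 OHCs (adjusted p = 0.000124). Both nascent HC calls were lost with limma-trend, a test on log values, and with the replicate number as a block, with adjusted p of up to 0.0636. The nascent HC call against WT_P30 OHCs was also lost with the number of detected genes as a covariate. OHC-like cells were not called against either wild-type group (adjusted p = 0.00281 and 0.0015). Among the induced groups no difference in Notch1 passed the edgeR test (adjusted p = 0.299 for OHC-like cells against SCs failing to become HCs). A difference is called here where the adjusted p lies below 0.001 and the log2 fold change exceeds 2 in size.

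Notch2 and Notch3 stayed near the limit of detection. Notch2, which is widely expressed in many tissues, was detected in 5 of 16 WT_P60 SCs with a highest value of 16.9 CPM, and 1 of the 17 WT_P30 OHCs had a single read. It was detected in 1 of 11 OHC-like cells, 2 of 16 nascent HCs and 6 of the 15 SCs failing to become HCs, where the highest value was 40.0 CPM. The test called it lower in WT_P30 OHCs than in WT_P60 SCs (adjusted p = 0.000257) and higher than in WT_P30 OHCs in both nascent HCs and the SCs failing to become HCs (adjusted p = 0.000375 and 3.28e-05). Each of these 3 calls was lost under limma-trend and with the number of detected genes as a covariate. Notch3, best known from the muscle cells and pericytes of small vessels, was detected in 2 of 11 OHC-like cells, 6 of 16 nascent HCs and 5 of the 15 SCs failing to become HCs, with highest values of 42.0, 28.9 and 51.9 CPM. It was called higher in all 3 induced groups than in either wild-type group, with adjusted p between 3.49e-05 and 0.00095. None of the 6 Notch3 calls held under all alternatives, and the highest adjusted p among them was 0.455. In OHC-like cells 1 cell held 85.2% of the summed Notch3 level.

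These receptors are also genes of vessel cells and macrophages, so the markers of those cells were read beside them. Of 4 pericyte markers (Pdgfrb, Rgs5, Cspg4, Kcnj8), none reached 1 CPM in any OHC-like cell or nascent HC, and 1 did in 1 of the SCs failing to become HCs, which did not have Notch3. The summed pericyte level was at most 0.399 CPM in OHC-like cells, 0.4 in nascent HCs and 23.5 in SCs failing to become HCs, against up to 219 in WT_P60 SCs. Of 5 endothelial markers (Pecam1, Cldn5, Cdh5, Kdr, Tek), Cldn5, Cdh5 and Kdr were at 0 in SCs failing to become HCs, and 1 marker reached 1 CPM in 1 of those cells, which was not among the 12 with Notch1. Summed endothelial levels reached 8.89 CPM there, 24.1 in OHC-like cells and 21.7 in nascent HCs, against 296 in WT_P60 SCs, which had no Notch1. In the other induced groups an endothelial marker was present in 1 of the 2 OHC-like cells and 1 of the 4 nascent HCs with Notch1, and in 1 of the 2 and 1 of the 6 with Notch3, and its part there was not tested. C1qa, C1qb and Cx3cr1, markers of macrophages, were at 0 in all 3 induced groups, and Csf1r alone reached 1 CPM, in 1 of the SCs failing to become HCs. Of the 12 cells of that group with Notch1, 1 had a macrophage marker and 1 a pericyte marker.

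Parts of the receptors' exons overlap other annotated genes, and whether the authors' counting used strand is not stated. Notch1 shares exon sequence with 0610009E02Rik and Gm13568 on the opposite strand, Notch2 with Gm42820 on the same strand, Notch3 with Gm17276 and Dll1 with A930024N18Rik, both on the opposite strand. The first had 259 reads in SCs failing to become HCs against 5196 for Notch1, Gm42820 had 24 reads in 1 OHC-like cell, and Gm13568 and Gm17276 had none.

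Jag1 marks SCs, and no difference in it was called between WT_P60 SCs and the induced cells. It was detected in all 16 WT_P60 SCs, from 1.13 to 238 CPM with a median of 101, and in 2 of 17 WT_P30 OHCs. OHC-like cells held 0.223 to 104 CPM (median 62.5). Nascent HCs held 0 to 382 CPM (median 33.6), and SCs failing to become HCs had 10.6 to 410 CPM (median 172). The 3 induced groups overlapped with WT_P60 SCs and with each other, and none of the differences among these 4 groups was called. The log2 fold change against WT_P60 SCs was -0.96 ± 1.10 (SE) in OHC-like cells, -0.11 ± 0.96 in nascent HCs and 0.80 ± 0.98 in SCs failing to become HCs. With SEs of this size the test does not show that the levels were alike. Jag1 was 10.5-fold lower in WT_P30 OHCs than in WT_P60 SCs by their means, and 15 of the 17 OHCs lay below every SC, but edgeR did not call it (adjusted p = 0.00774). Limma-trend (adjusted p = 8.18e-11) and DESeq2 (adjusted p = 0.000446) did. Of the 2 OHCs with Jag1, 1 also had an SC marker. Cell 10 of the OHCs held 75.5% of that group's Jag1, and without it the OHC mean fell from 9.79 to 2.55 CPM.

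Jag2, a ligand of hair cells, had no read in the 16 WT_P60 SCs. In WT_P30 OHCs it was detected in 9 of 17 cells, from 0 to 253 CPM with a median of 4.2. All 11 OHC-like cells carried it, from 45.9 to 836 CPM with a median of 349, as did all 16 nascent HCs, from 17.8 to 1002 CPM with a median of 246. In SCs failing to become HCs 5 of 15 cells had it, with a median of 0.143 and a highest of 894 CPM. OHC-like cells and nascent HCs did not overlap with WT_P60 SCs, and the lower part of both groups overlapped with WT_P30 OHCs.

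Jag2 was called higher than in WT_P60 SCs in all 4 other groups. The adjusted p was 9.55e-07 for WT_P30 OHCs, 8.45e-08 for OHC-like cells, 7.41e-08 for nascent HCs and 1.29e-06 for SCs failing to become HCs. With limma-trend the calls for WT_P30 OHCs and SCs failing to become HCs were lost (adjusted p = 0.00183 and 0.0415). The means were at least 89.2, 769, 685 and 187-fold higher in the same order. The last of these bounds rested on cell 2 of that group, without which it was 48.8-fold and the mean fell from 78.7 to 20.5 CPM. Against WT_P30 OHCs, whose mean of 37.5 CPM was 24.0 without their cell 13, mean Jag2 was 8.62-fold higher in OHC-like cells and 7.67-fold higher in nascent HCs. Neither was called by edgeR (adjusted p = 0.0748 and 0.0688), while limma-trend called both (adjusted p = 2.99e-06 and 6.21e-07).

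Dll3 and Dll1 were absent or nearly absent from wild-type cells of these ages. Dll3, the ligand that acts within its own cell, had no read in WT_P30 OHCs and 2 reads in 1 WT_P60 SC. It reached 1 CPM in 10 of 11 OHC-like cells, and the group ran from 0.223 to 1301 CPM with a median of 301. All 16 nascent HCs had it, from 89.9 to 1972 CPM with a median of 504. Among SCs failing to become HCs 3 of 15 reached 1 CPM, and the median was 0 and the highest 294 CPM. No nascent HC overlapped with any wild-type cell, and 12 of the 16 lay above every one of the SCs failing to become HCs.

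Mean Dll3 was 652 ± 531 CPM (SD, n = 16) in nascent HCs, 483 ± 497 (n = 11) in OHC-like cells and 27.3 ± 77.5 (n = 15) in SCs failing to become HCs. Against WT_P30 OHCs these means were at least 1470, 1089 and 61.5-fold higher. All 3 groups were called higher than WT_P30 OHCs (adjusted p = 4.42e-11, 1.17e-10 and 3.53e-08) and than WT_P60 SCs (adjusted p = 7.95e-10, 2.1e-09 and 8.46e-07). In SCs failing to become HCs cell 5 held 72.0% of the sum, the bound without it was 18.4-fold, and the call against WT_P60 SCs was lost under limma-trend and the replicate block (highest adjusted p = 0.165). The call of the same group against WT_P30 OHCs was lost under limma-trend and the detected-gene covariate (highest adjusted p = 0.0694).

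Dll1, the ligand of new HCs during development, had no read in either wild-type group. Dll1 was found in 10 of 16 nascent HCs, 4 of 11 OHC-like cells and 2 of 15 SCs failing to become HCs. In the order nascent HCs, OHC-like cells, failing cells, highest values were 244, 63.4 and 32.3 CPM, and medians were 49.8, 0 and 0. Nascent HCs were called higher than WT_P60 SCs (adjusted p = 7.92e-05) and WT_P30 OHCs (adjusted p = 3.39e-05), with means at least 165 and 156-fold higher. OHC-like cells were called higher than both as well (adjusted p = 0.000457 and 0.000221), and SCs failing to become HCs only against WT_P30 OHCs (adjusted p = 0.000508, and 0.00185 against WT_P60 SCs). Leaving out the highest cell lowered the mean from 13.4 to 8.41 CPM in OHC-like cells (cell 9) and from 4.10 to 2.09 in SCs failing to become HCs (cell 5). The OHC-like calls were lost with limma-trend, the replicate block and the number of detected genes as a covariate, where adjusted p reached 0.555. The call of SCs failing to become HCs was lost under the same 3 settings (up to 0.438), and that of nascent HCs against WT_P30 OHCs with the covariate (adjusted p = 0.117). In nascent HCs Dll1 was detected in 4 of 4 cells of run E, 3 of 4 of run D, 2 of 6 of run B, the 1 cell of run C and not in the 1 cell of run A.

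Markers of other cell types were read beside the ligands too. The summed level of the neuronal markers Tubb3, Nefl and Snap25 had a median of 220 CPM in nascent HCs, 148 in OHC-like cells, 0.507 in SCs failing to become HCs (highest 999), 0 in WT_P60 SCs and 192 in WT_P30 OHCs. All 3 genes were thus also found in wild-type OHCs, where Dll1 and Dll3 had no read. Of the fibroblast markers Col1a1, Col1a2 and Dcn, at least 1 was present in 4 of 11 OHC-like cells, 2 of 16 nascent HCs and 5 of the 15 SCs failing to become HCs, with summed levels of up to 42.7, 59.5 and 132 CPM. This compares with 1 of 16 WT_P60 SCs and 0 of 17 WT_P30 OHCs. Of the blood markers Hbb-bs and Hba-a1, at least 1 was present in 3 OHC-like cells, at up to 2295 CPM, and in 2 to 4 cells of every other group, at up to 78.0 CPM. The part of these markers in the differences between groups was not tested.

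Mfng was the one gene of the 10 for which OHC-like cells and nascent HCs overlapped with neither wild-type group. For Mfng, and for Jag2 and Dll3 above, the share of all tested genes that separate groups in this way is not given here. It encodes manic fringe and had no read in any of the 17 WT_P30 OHCs and 16 WT_P60 SCs. All 11 OHC-like cells carried it, from 171 to 1205 CPM with a median of 660. All 16 nascent HCs carried it, from 21.9 to 1535 CPM with a median of 573. The lowest of these cells thus lay above every wild-type cell. SCs failing to become HCs were divided: 9 of 15 had between 5.05 and 625 CPM and the other 6 were under 1 CPM, giving a median of 62.6.

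The means were 688 ± 339 CPM (SD, n = 11) in OHC-like cells, 602 ± 370 (n = 16) in nascent HCs and 133 ± 202 (n = 15) in SCs failing to become HCs. Relative to WT_P60 SCs they were at least 1638, 1434 and 317-fold higher (adjusted p = 5.92e-11, 5.54e-11 and 1.56e-09). Relative to WT_P30 OHCs they were at least 1551, 1358 and 299.8-fold higher (adjusted p = 9.08e-12, 8.14e-12 and 1.39e-10). All 6 calls held under every alternative fitted, with a highest adjusted p of 2.22e-06. Mfng was the one gene for which this was so in all comparisons with wild-type cells. The absence of Mfng reads from wild-type cells was known when the genes were chosen, so these calls are not independent support for it. Mean Mfng was 5.17-fold higher in OHC-like cells than in SCs failing to become HCs and 4.53-fold higher in nascent HCs. Neither difference was called by edgeR (log2 fold changes 2.37 ± 0.93 and 2.18 ± 0.87 SE, adjusted p = 0.174 and 0.219), and both were by limma-trend (adjusted p = 4.28e-06 and 2.82e-06).

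Lfng, lunatic fringe, is a gene of SCs in the developing cochlea. It had no read in WT_P30 OHCs and was detected in 9 of 16 WT_P60 SCs, from 0 to 84.2 CPM with a median of 3.38 (mean 12.2 CPM, and 7.41 without cell 16). OHC-like cells had a median of 2.13 and a highest value of 231 CPM, nascent HCs 24.7 and 183, and SCs failing to become HCs 4.11 and 193, with 7 of 11, 14 of 16 and 8 of 15 cells detected. All 4 groups overlapped, and no difference among them was called. Each was called different from WT_P30 OHCs, with adjusted p of 3.4e-06 for WT_P60 SCs, 1.98e-06 for OHC-like cells, 7.03e-07 for nascent HCs and 6.52e-07 for SCs failing to become HCs. The first 2 of these calls were lost under limma-trend (adjusted p = 0.00665 and 0.00424). OHC-like cell 4, the cell with the fewest detected genes in its group, held 75.5% of the summed Lfng of the OHC-like cells. Without that cell the mean fell from 27.8 to 7.48 CPM, and the log2 fold change against WT_P60 SCs changed from 1.19 to -0.72, uncalled either way.

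Rfng, radical fringe, was the fringe found in both wild-type groups and in the induced cells as well. It was detected in 12 of 17 WT_P30 OHCs (median 48.8, highest 242 CPM) and 12 of 16 WT_P60 SCs (median 8.86, highest 95.4). OHC-like cells had it in 10 of 11 cells (median 51.8) and nascent HCs in 14 of 16 (median 39.3). SCs failing to become HCs were lowest, with 5 of 15 cells detected, a median of 0 and a highest of 32.7 CPM. Rfng was not called in any of the 10 comparisons. The nearest was SCs failing to become HCs against WT_P30 OHCs, with means of 6.67 and 67.9 CPM and a log2 fold change of -3.34 ± 1.23 (SE, adjusted p = 0.0352). Across the 42 induced cells, log2 Rfng rose with the log2 total count of the library (Pearson r = 0.66, Spearman rho = 0.70), the strongest such relation of the 10 genes. With every cell thinned to the smallest total no comparison of Rfng was called.

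**Figure D2:**
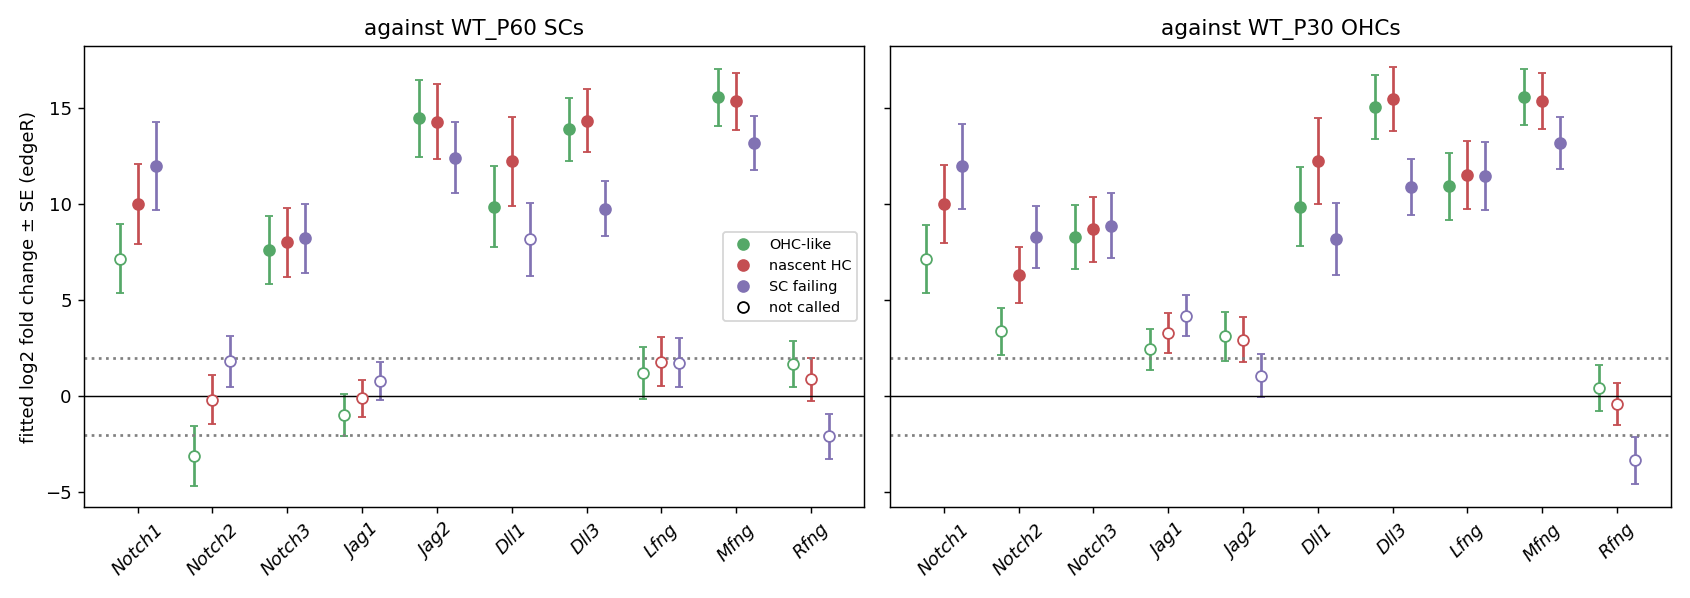
Fitted log2 fold change of each gene, with its SE, in each of the 3 induced groups against WT_P60 SCs (left) and WT_P30 OHCs (right); filled points were called and open points were not, and dotted lines mark 2 and -2. Values of genes without reads in the wild-type group depend on the prior count of the fit, so their size is not a measured fold.

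Counted together, OHC-like cells had 5 of the 10 genes called against WT_P60 SCs, all higher, where 6.42% of all 11443 tested genes were called and 5.77% were called higher. In nascent HCs against WT_P60 SCs 6 were called, all higher, with 7.77% of all genes called and 6.31% called higher. In SCs failing to become HCs 5 were called, all higher, with 4.17% of all genes called and 3.38% called higher. Against WT_P30 OHCs 5 genes were called in OHC-like cells, 7 in nascent HCs and 7 in SCs failing to become HCs, all higher, with 10.6%, 13.2% and 14.7% of all genes called and 10.0%, 11.8% and 12.2% called higher. Between the wild-type groups Jag2 was higher and Notch2 and Lfng lower in OHCs, which is 3 of 10 with 15.3% of all genes called, 4.96% higher and 10.3% lower. These comparisons share their wild-type cells and are not independent of each other. Mfng is among the genes called in every comparison of induced with wild-type cells. Its absence from wild-type cells was known when the genes were chosen. These counts, and the medians below that include it, are therefore not independent of that choice. All 10 genes passed the filter on low counts.

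The median log2 fold change of the 10 genes against WT_P60 SCs was 3.63 in OHC-like cells, 6.26 in nascent HCs and 5.20 in SCs failing to become HCs when genes without reads in WT_P60 SCs were set at their lower bound. Over all tested genes the medians were 0.324, 0.341 and 0.253. Against WT_P30 OHCs the 3 medians were 3.35, 5.68 and 5.07, with 0.606, 0.571 and 0.503 over all genes. Genes with only a few reads in a wild-type group kept their fitted values. These were Notch3 and Dll3 against WT_P60 SCs and Notch2 against WT_P30 OHCs. The medians thus still depend on values near the floor.

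None of the 10 genes was called between any pair of induced groups by edgeR. In OHC-like cells against SCs failing to become HCs, 1.03% of all genes were called. In nascent HCs against SCs failing to become HCs it was 1.35%, and in OHC-like cells against nascent HCs 0.0787%. At an unadjusted p under 0.05 the edgeR counts were 5, 4 and 0 of the 10 genes. DESeq2 called 0 in each, and limma-trend called 4, 4 and 0. The limma-trend calls against SCs failing to become HCs were Jag2, Dll3 and Mfng higher in both comparisons, Notch1 lower in OHC-like cells and Dll1 higher in nascent HCs. Dll3 came nearest in edgeR and was the 1 gene called in each of these comparisons at an adjusted p of 0.05 and a log2 fold change of 1, where 5.07% and 4.79% of all genes were called. It had log2 fold changes of 4.15 ± 1.14 (SE) in OHC-like cells (adjusted p = 0.0156) and 4.58 ± 1.13 in nascent HCs (adjusted p = 0.00498). Since the groups were formed by the authors from Myo7a and Slc26a5 of the same cells, these comparisons set cells apart by their HC genes first.

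Values within library runs were read for the genes that differed most between those groups. SCs failing to become HCs came mainly from run C (10 cells) and run A (4 cells), with 1 in run E, while 1 nascent HC came from each of runs A and C. In run A mean Mfng was 156 CPM in 4 SCs failing to become HCs, 477 in the nascent HC and 227 in the OHC-like cell. In run C it was 121 in 10 cells against 1139 in the nascent HC, and in run E 160 in 1 cell against 514 in 4 nascent HCs and 608 in 2 OHC-like cells. Mean Mfng was thus lower in SCs failing to become HCs in each of the 3 runs that held them. In run A, Mfng was detected in 2 of those 4 cells. All values by run, also for the genes that follow, are means or single cells. They do not show whether cells of the groups overlapped within a run. Dll3 was lower in each of these runs too: 0 against 112 and 17.9 CPM in run A, 31.9 against 816 in run C, and 89.6 against 433 and 175 in run E. Jag2 was lower in runs C (28.7 against 248) and E (0 against 310 and 370), but in run A it was 223 in SCs failing to become HCs against 175 and 45.9. With the run as a covariate in the fit of the 42 cells, none of the 10 genes was called between the induced groups, as in the fit without it.

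**Figure D3:**
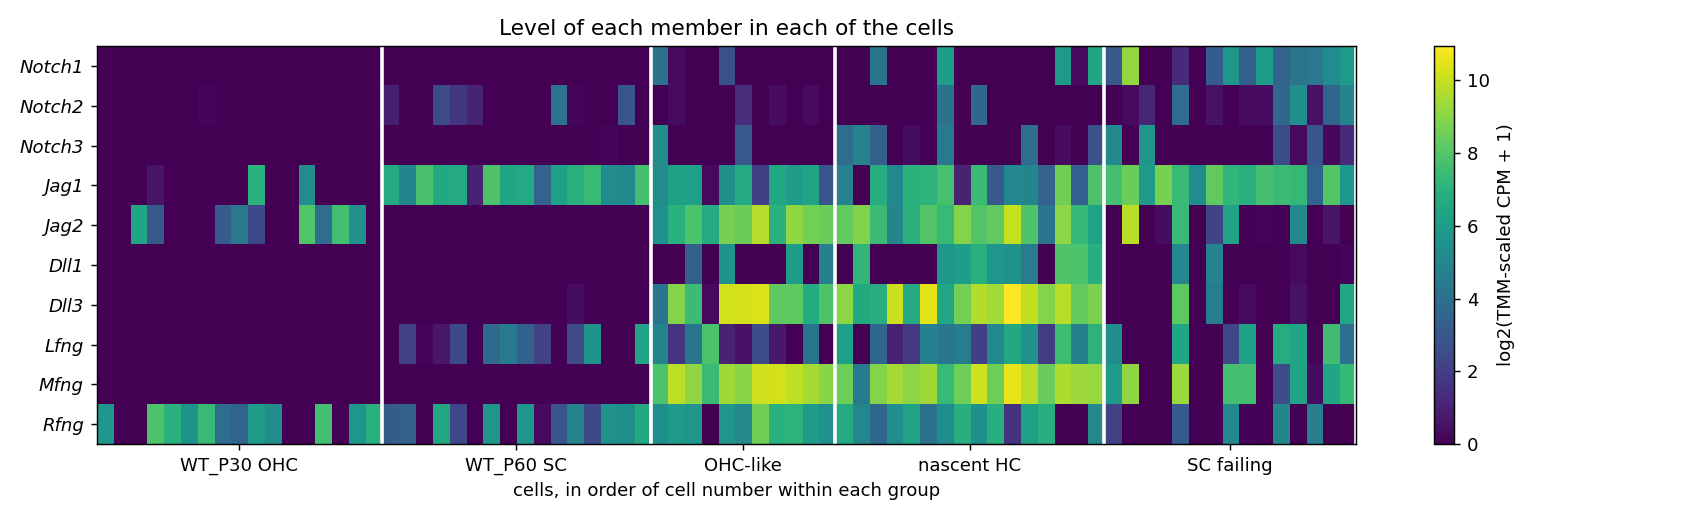
Level of the 10 genes (rows) in each of the 75 cells (columns, grouped, in order of cell number), as log2 of TMM-scaled CPM plus 1. Jag2, Dll3 and Mfng were all present in 10 of 11 OHC-like cells and 16 of 16 nascent HCs, and in 1 of 15 SCs failing to become HCs.

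Which genes occurred together in a cell was then counted. In OHC-like cells 10 of 11 had Mfng, Jag2 and Dll3 together, and the other lacked only Dll3. All 16 nascent HCs had the 3 together. In SCs failing to become HCs, 5 of 15 had none of the 3, 4 had Mfng alone, 3 had Mfng and Jag2, and 1 each had Mfng and Dll3, Jag2 and Dll3, and all 3. So Mfng was the most frequent of the 3 in that group, and it was the one that occurred alone. All 9 cells with Mfng also had Notch1, as did 3 of the 6 without it. Of the 9, 8 had Lfng, which was not detected in any of the other 6. Log2 levels of Mfng and Lfng had Pearson r = 0.63 over these 15 cells, and Mfng had r = 0.30 with the number of detected genes. No WT_P30 OHC had any of the 3 receptors at 1 CPM, and 5 of 16 WT_P60 SCs had 1 of them. Among induced cells 3 of 11 OHC-like cells, 8 of 16 nascent HCs and 13 of the 15 SCs failing to become HCs had at least 1 receptor. All 4 ligands were detected in the same cell in 4 of 11 OHC-like cells, 9 of 16 nascent HCs and 2 of the 15 SCs failing to become HCs, and every induced cell had at least 1.

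Within the induced groups, Dll3 and Mfng were correlated over the 16 nascent HCs (log2 levels, Pearson r = 0.68, Spearman rho = 0.76) and the 11 OHC-like cells (r = 0.81, rho = 0.54), and less over the 15 SCs failing to become HCs (r = 0.31, rho = 0.36). In OHC-like cells Mfng also rose with the log2 total count (r = 0.76), and in nascent HCs less so (r = 0.33). Atoh1, read from the transgene and its own locus together, had r = 0.16 with Mfng, 0.21 with Dll3 and 0.12 with Jag2 over the 42 induced cells. In the same gene order, Atoh1 had r = 0.50, 0.31 and 0.38 within OHC-like cells. Within nascent HCs these values were -0.02, 0.41 and -0.32, and within SCs failing to become HCs 0.03, -0.07 and -0.0009. Mean Atoh1 was 5494 CPM in OHC-like cells, 4944 in nascent HCs and 5464 in SCs failing to become HCs. The HC gene Myo7a, which the grouping used, had r = -0.01, -0.14 and 0.35 with Mfng, Dll3 and Jag2 within OHC-like cells, 0.49, 0.65 and 0.37 within nascent HCs, and 0.37, 0.34 and 0.38 within SCs failing to become HCs. These points share library runs and depth, and no test was made.

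To compare levels between genes, counts were divided by exon length into TPM, in which the values of each cell have the same sum. In WT_P60 SCs Jag1 was the highest of the 10 genes at 48.1 ± 35.8 TPM (SD, n = 16), followed by Rfng at 30.8 ± 36.0. In WT_P30 OHCs Rfng was highest at 64.1 ± 71.7 TPM (n = 17), followed by Jag2 at 12.7 ± 26.6. Mfng was highest in OHC-like cells at 505 ± 238 TPM (n = 11), ahead of Dll3 at 354 ± 356. In nascent HCs Dll3 at 509 ± 434 TPM and Mfng at 486 ± 324 (n = 16) differed by less than their spread, and their order turned when the longest transcript's length was used (447 and 594). SCs failing to become HCs had Mfng at 104 ± 165 TPM and Jag1 at 69.8 ± 49.7 (n = 15).

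The make-up of the ligands and fringes by TPM differed between the groups accordingly. Jag1 made up 99.97% of the summed ligand TPM of WT_P60 SCs, while Jag2 made up 72.2% in WT_P30 OHCs. Dll3 made up 74.1% in OHC-like cells and 73.7% in nascent HCs, and Jag1 58.3% in SCs failing to become HCs. Of the fringe TPM, Rfng held 100.0% in WT_P30 OHCs and 69.2% in WT_P60 SCs, and Mfng held 85.9% in OHC-like cells, 85.3% in nascent HCs and 71.0% in SCs failing to become HCs. The receptors summed to a median of 7.97 TPM in SCs failing to become HCs, 1.18 in nascent HCs and under 0.1 in the other 3 groups.

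**Figure D4:**
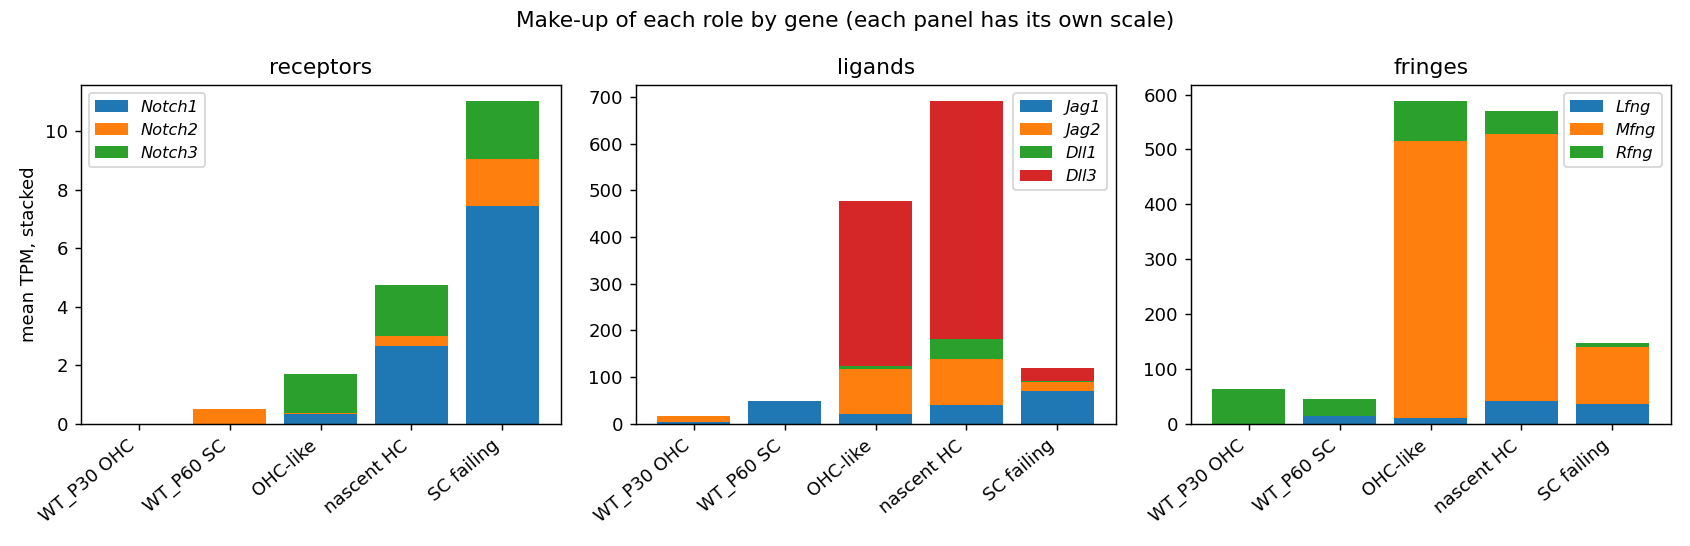
Mean TPM of the receptors, ligands and fringes in each group, stacked by gene, with a separate scale in each panel. Ligands and fringes were highest in OHC-like cells and nascent HCs, where Dll3 and Mfng made up most of each bar, and receptors were highest in SCs failing to become HCs, where Notch1 did.

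The order of the mean levels over the 5 groups differed between genes. Mfng ran from OHC-like cells over nascent HCs to SCs failing to become HCs, and the only step that passed the test was the one down to the wild-type groups (adjusted p = 1.39e-10). Dll3 and Dll1 ran from nascent HCs over OHC-like cells to SCs failing to become HCs, again with the one called step below the latter (adjusted p = 8.46e-07 and 0.000508). Jag2 had its called step between WT_P30 OHCs and WT_P60 SCs. Notch1, Notch2, Notch3 and Jag1 were highest in SCs failing to become HCs, but none of these 4 differed there from the next group by the test (adjusted p between 0.597 and 1). Neighbours in the order of Rfng did not pass the test at any step.

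The 3 tested genes whose log2(CPM + 1) was most alike over the 75 cells were taken for each of the 10. For Mfng they were Gfra4 (Pearson r = 0.93), Sgpp2 (0.93) and Psph (0.90), and for Dll3 they included AC109619.1 (0.91) and Neurod6 (0.91). For Jag2 they were Eya2 (0.81), Gpr4 (0.81) and Sgpp2 (0.80), and for Jag1 Cnn3 (0.79), S100a10 (0.76) and Tspo (0.76). Fbn2 (0.84) was closest to Notch1, Cldn4 (0.71) to Notch3, Reep2 (0.66) to Dll1, Emx2os (0.62) to Lfng, Rfng had Sccpdh (0.55) and Notch2 Gm32815 (0.54). These values describe shared differences between groups as well as between cells, and libraries of a group share runs and depth.

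The induced cells carried transgenic Atoh1 and Ikzf2. Windows of 300 bases around the RefSeq start sites of these genes (GRCm38.p6, 250 bases before to 50 after) were searched for motifs. The first was CAGCTG, the E-box form that Atoh1 is known to bind and which reads the same on both strands. The other was TGGGAA, searched in either orientation. It is bound by Rbpj and is also the core of sites of the Ikaros family, to which Ikzf2 belongs. Windows were found for 9 of the 10 genes, and not for Mfng, with 2 windows for Dll1. CAGCTG was in the windows of Jag1, Dll1 (the upstream of its 2 windows), Dll3 and Lfng, against 16.3% of all 32851 windows. TGGGAA was only in that of Lfng, against 25.6%. Of the genes with CAGCTG, Jag1 and Lfng were not called in any induced group against WT_P60 SCs. Dll1 and Dll3 were called in such comparisons, as were Jag2, Notch1 and Notch3, whose windows held neither motif. Binding at these sites was not tested. The matches follow, each within 30 bases read in the direction of the gene and with that match in capitals. These are the stretches that hold the letters searched for.
Jag1, chr2:137116585-137116614, minus strand: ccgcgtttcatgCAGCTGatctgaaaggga
Dll1, chr17:15377047-15377076, minus strand: tgcattaccataCAGCTGagcgcacaaaga
Dll3, chr7:28301775-28301804, minus strand: tccggcatccagCAGCTGcgactcctgaga
Lfng, chr5:140607183-140607212, plus strand: ccgtgggtacccCAGCTGggtggttcccag
Lfng, chr5:140607330-140607359, plus strand: gcgagaggcgcgCAGCTGgaccgggagcct
Lfng, chr5:140607221-140607250, plus strand: ccgtatcccacgTGGGAAggagagatctcc
The E-box began 82 bases before the start site in Jag1, 132 in Dll1, 7 in Dll3 and 146 in the first match of Lfng, while the other match of Lfng began 1 base after the start. In the GENCODE M21 annotation the Jag1, Dll3 and second Lfng matches lay in untranslated parts of exons, and the others outside the annotated transcripts. Lfng had a further TGGGAA match on the other strand, 135 bases before its start. It lies, in lower case, within the first Lfng stretch above. The windows of Notch1, Notch2, Notch3, Jag2 and Rfng held neither motif, which says only that these letters were not in them.

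The rest of the pathway was read from a list of 40 other genes, of which 34 passed the filter. In OHC-like cells against WT_P60 SCs 8 of them were called higher and none lower, beside 5.77% of all tested genes called higher. In nascent HCs 9 were called higher and none lower, beside 6.31%, and in SCs failing to become HCs 4 and none, beside 3.38%. Against WT_P30 OHCs 6 were called higher in OHC-like cells, 6 in nascent HCs and 7 in SCs failing to become HCs, beside 10.0%, 11.8% and 12.2%, and 1, Dner, lower in the last. Between the wild-type groups Dll4, Dner and Heyl were called higher and Neurl1b, Hes1 and Hey1 lower in OHCs, beside 4.96% and 10.3% of all genes. Between the induced groups none was called. In all, 12 genes were called in at least 1 comparison. Among them, Neurl1a was called higher in OHC-like cells and nascent HCs against WT_P60 SCs, and Neurl1b in nascent HCs. Neurl1b and Dtx2 were called higher in every induced group against WT_P30 OHCs.

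Among other ligands, Dll4 had no read in WT_P60 SCs and was detected in 5 of 17 WT_P30 OHCs, 5 of 11 OHC-like cells and 5 of 16 nascent HCs, each called higher (adjusted p = 0.00043, 0.000714 and 0.000218). Dner, a ligand-like membrane protein of neurons, was in all 17 WT_P30 OHCs, from 132 to 994 CPM, and had no read in WT_P60 SCs. Dner was present in 9 of 11 OHC-like cells, 11 of 16 nascent HCs and 1 of the 15 SCs failing to become HCs. Dtx1, which acts on receptor turnover and is itself a Notch target in other tissues, had no read in WT_P60 SCs and was present in 10 of 16 nascent HCs, 7 of 11 OHC-like cells and 6 of 15 SCs failing to become HCs, called in all 6 comparisons with wild-type cells.

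The transcription factors downstream of the receptors moved in different ways. Hes1, the target that SCs carry, was in all 16 WT_P60 SCs (median 64.5 CPM) and had no read in WT_P30 OHCs (adjusted p = 7.21e-10). It was found in 8 of 11 OHC-like cells, 13 of 16 nascent HCs and 13 of the 15 SCs failing to become HCs (medians 17.1, 52.5 and 37.8 CPM), and was not called against WT_P60 SCs in any of them. Heyl had no read in WT_P60 SCs, and its median was 307 CPM in OHC-like cells, 332 in nascent HCs and 752 in SCs failing to become HCs (adjusted p = 3.26e-09, 1.75e-09 and 1.62e-09). It was also found in 6 of 17 WT_P30 OHCs, at up to 156 CPM, and called higher there than in WT_P60 SCs (adjusted p = 1.6e-07). Against WT_P30 OHCs, Heyl was called in SCs failing to become HCs (adjusted p = 0.000492) and not in OHC-like cells or nascent HCs (adjusted p = 0.00633 and 0.00289). Hes6, a relative that works against Hes1 and is expressed in HCs, had medians of 580, 637 and 165 CPM in the same groups and 0 in WT_P60 SCs, and was called in the first 2 (adjusted p = 0.000316 and 0.000125). Hes5, the classical readout of lateral inhibition, had no read in WT_P60 SCs. It reached 1 CPM in 10 of 16 nascent HCs and 3 of 11 OHC-like cells, both called (adjusted p = 0.00032 and 0.00046), and in 1 of 15 SCs failing to become HCs. Hey2 was called higher in every induced group against both wild-type groups. Hey1 was called higher in every induced group against WT_P30 OHCs and in none against WT_P60 SCs.

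**Figure D5:**
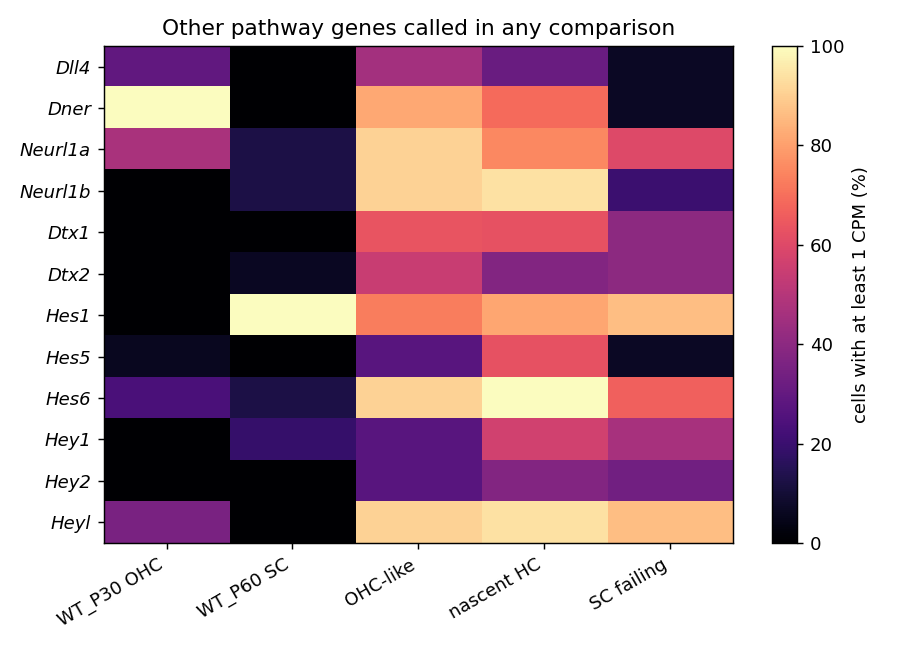
Share of cells (colour, in percent) of each group with at least 1 CPM of the 12 other pathway genes that were called in at least 1 comparison. Hes1 was in all WT_P60 SCs and no WT_P30 OHC, Dner the reverse, and Dtx1 and Hey2 reached 1 CPM only in induced cells.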

How the data were processed

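Full-length single-cell RNA-Seq (Smart-Seq) was performed on 75 hand-picked cells. The authors deposited raw counts per gene, made with FastQC 0.11.9, Trimmomatic 0.39, HISAT2 2.1.0 on GRCm38 and HTSeq 0.10.0; the strand setting and annotation release are not given in the sources used here. Groups followed the sample labels. Genes were filtered with filterByExpr (minimum count 10, leaving 11443 of 55291) and tested with edgeR 4.0.16 (R 4.3.3; quasi-likelihood test, TMM, all 5 groups in 1 fit, Benjamini-Hochberg adjustment over all tested genes) in 10 comparisons, and called at an adjusted p below 0.001 and a log2 fold change over 2. The script was tested on simulated data. Alternatives were DESeq2 1.42.0, limma-trend 3.58.1 (prior count 2), other scalings, no filter, covariates, a replicate block, fits of 2 groups, looser thresholds, and thinning to 4264780 reads. TPM used exon lengths of GENCODE M21, found for 53292 genes. Levels without a group's highest cell, and without cells in which a transcript excluded by their label reached 1 CPM, were added after seeing the data. Detection was at least 1 CPM, and total counts per cell set its precision. The text names the 10 genes, the most similar genes by correlation and pathway genes called in a comparison. A gene among the most similar ones is not reported here. Members and lists were chosen with earlier results of these data known.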

Additional observations from a re-analysis of the deposited data

How the results depend on the processing

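Of the 38 calls of the 10 genes, 17 held under every alternative that could be fitted, and no called difference changed sign; for the others the cause was not tested. DESeq2 kept 35, limma-trend 18, the number of detected genes as a covariate 23, the replicate block 26 and thinning 37. DESeq2 called 6 genes between the wild-type groups: Notch2, Jag1, Jag2, Lfng and others with no cell above 3 reads in either group. With limma-trend the counts were 1 between the wild-type groups, 3 for OHC-like cells and 2 for failing SCs against WT_P60 SCs, 4 for failing SCs against WT_P30 OHCs, and 4 for both OHC-like cells and nascent HCs against failing SCs. The detected-gene covariate gave 3 for OHC-like cells against WT_P60 SCs and 3 for each induced group against WT_P30 OHCs. Fits of only the 2 groups compared test fewer genes, since genes absent from a group often fail the filter, and gave 0 between the wild-type groups, 2, 3 and 0 for OHC-like cells, nascent HCs and failing SCs against WT_P60 SCs, and 1, 2 and 0 against WT_P30 OHCs. All 8 calls that could be refitted there were kept. Thresholds of 0.05 and 1 gave 1 in OHC-like cells and 1 in nascent HCs against failing SCs. Without OHC-like cell 4 the counts were 4 against WT_P60 SCs, 5 against WT_P30 OHCs and 0 against both other induced groups. Other scalings moved the median of all genes by at most -0.25 (library size only) and -0.22 (DESeq2 size factors).

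The replicate numbers of the titles do not pair cells: same-numbered cells of different groups had a median correlation of -0.00045 over 137 pairs, and differently numbered cells -0.00063 over 2102. With the replicate block 3 genes were called for OHC-like cells and 3 for failing SCs against WT_P60 SCs, and 1 each for OHC-like cells and nascent HCs against failing SCs.

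Uncalled log2 fold changes changed sign 16 times. With the detected-gene covariate Notch2 and Rfng in OHC-like cells against WT_P30 OHCs became -0.63 and -1.54. With the block Notch2 in OHC-like cells against nascent HCs became 1.95, Notch3 in nascent HCs against failing SCs 0.54, Jag2 in failing SCs against WT_P30 OHCs -0.91 and Rfng in nascent HCs against WT_P30 OHCs 0.10. With limma-trend the last 3 were 0.42, -0.72 and 0.76. With the library run as a covariate Notch3 in nascent HCs against failing SCs was 2.29 and Lfng in OHC-like cells against failing SCs 0.32, and the latter was 0.053 with DESeq2 and 0.053 with its size factors. Lfng in nascent HCs against failing SCs was -0.00179 in the fit of 2 groups and -0.013 after thinning, and Lfng in OHC-like cells against WT_P60 SCs -0.72 without OHC-like cell 4.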
